A study of Homo sapiens with 4 samples.

Results

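The genes described here are 10 chaperones and partner proteins of the unfolded protein response (UPR) of the endoplasmic reticulum (ER): HSPA5, HSP90B1, DNAJB9, SDF2L1, HERPUD1, XBP1, PDIA4, CRELD2, DNAJC3 and HYOU1. They were picked by gene symbol as genes of this response, with earlier results of these data known, and are 10 of the 18917 genes in the count table. All 10 passed the filter used for the tests, which asked for 1 CPM (counts scaled to a common library total) or more in 2 or more libraries. RNA was sequenced in 4 libraries of HEK293 cells, an immortalized human embryonic kidney line that the study's methods call HEK-293T, 2 libraries from wild-type (WT) cells and 2 from THUMPD1 knockout (KO) cells. THUMPD1 is the adaptor with which the acetyltransferase NAT10 acetylates cytidine in serine and leucine tRNAs, and the comparison asks which transcripts differ when it is missing. Cells of both genotypes were grown in DMEM with serum and 2 mM glutamine, and no ER stressor is named for either. The KO line was made with CRISPR-Cas9 and sorting of single cells, so effects of the clone and of the genotype cannot be told apart. Nothing says that the 2 libraries of a genotype came from separate cultures, so the p-values measure the spread between these libraries, which may be technical.

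Proteins that enter the secretory pathway fold in the ER with the help of the HSP70 chaperone BiP, its J-domain partners, a lectin-based cycle and disulfide isomerases. When unfolded proteins accumulate, the sensors IRE1, ATF6 and PERK are activated: IRE1 splices the XBP1 mRNA so that it encodes a transcription factor, ATF6 is cut to release another, and PERK phosphorylates eIF2α, which favours translation of ATF4. Spliced XBP1 and cleaved ATF6 raise chaperone genes through ER stress elements in their promoters, in which the CCAAT box is bound by the general factor NF-Y and the CCACG part by ATF6 or XBP1.

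Such elements were looked for in RefSeq promoter sequences (build GRCh38.p14), each reaching from 250 bases before an annotated start to 50 bases after it. All 10 genes matched, with 12 starts, since XBP1 and PDIA4 have 2 each. The ER stress element ERSE was written as CCAAT and CCACG with any 9 bases between them, and ERSE-II as ATTGG and CCACG with any 1 base between them, on either strand. ERSE was found before HSPA5, HSP90B1, XBP1 and CRELD2, against 27 of all 35116 promoter sequences (0.0769%). ERSE-II was found before SDF2L1, HERPUD1 and HYOU1, against 19 of 35116 (0.0541%). Both totals include the promoter sequences of the 10 genes themselves. The 10 were chosen as genes of a response that acts through such elements, so finding them here is no independent result. The 7 genes with an element are printed below on the strand of the gene. Capitals mark the CCAAT box and the CCACG part, each of which reads as its reverse complement, ATTGG or CGTGG, where it lies on the other strand.
HSPA5: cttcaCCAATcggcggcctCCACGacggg
XBP1: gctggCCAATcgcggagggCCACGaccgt
HSP90B1 distal: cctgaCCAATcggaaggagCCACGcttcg
HSP90B1 proximal: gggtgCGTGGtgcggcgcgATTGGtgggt
CRELD2: cctctCGTGGcgaactcggATTGGgccat
HERPUD1: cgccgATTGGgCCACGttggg
SDF2L1: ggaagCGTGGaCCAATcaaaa
HYOU1 distal: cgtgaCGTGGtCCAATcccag
HYOU1 proximal: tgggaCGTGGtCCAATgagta

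The printed stretch of HSPA5 is chr9:125241386-125241414 on the minus strand, and its element covers bases -66 to -48 from the start. That of XBP1 is chr22:28800598-28800626 on the minus strand, with the element at bases -52 to -34 of the first of its 2 starts. The stretches of HSP90B1 are chr12:103930211-103930239 and chr12:103930316-103930344 on the plus strand, with elements at bases -194 to -176 and -89 to -71, in opposite orientations. That of CRELD2 is chr22:49918549-49918577 on the plus strand, at bases -80 to -62, and it was also within the promoter sequence of ALG12, the gene on the opposite strand. The ERSE-II of HERPUD1 is in chr16:56932020-56932040 on the plus strand, at bases -117 to -107, and that of SDF2L1 in chr22:21642109-21642129 on the plus strand, at bases -188 to -178. HYOU1, on the minus strand, has one in chr11:119057375-119057395 at bases -185 to -175 and one in chr11:119057269-119057289 at bases -79 to -69. DNAJB9, PDIA4 and DNAJC3 held neither element in this window. The UPR element UPRE, written as TGACG followed by TGG, was in 0.729% of all promoter sequences and among the 10 genes only before HYOU1, at bases -188 to -181, where it overlaps the distal ERSE-II. The CCACG part alone was before all 10 genes, against 38.1% of all promoter sequences, and lies within ERSE and ERSE-II. The core TGACGT was before HSPA5 and HYOU1, against 7.98% of promoter sequences, and lies within UPRE. A match is a match of letters and not evidence of binding.

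**Figure D1:**
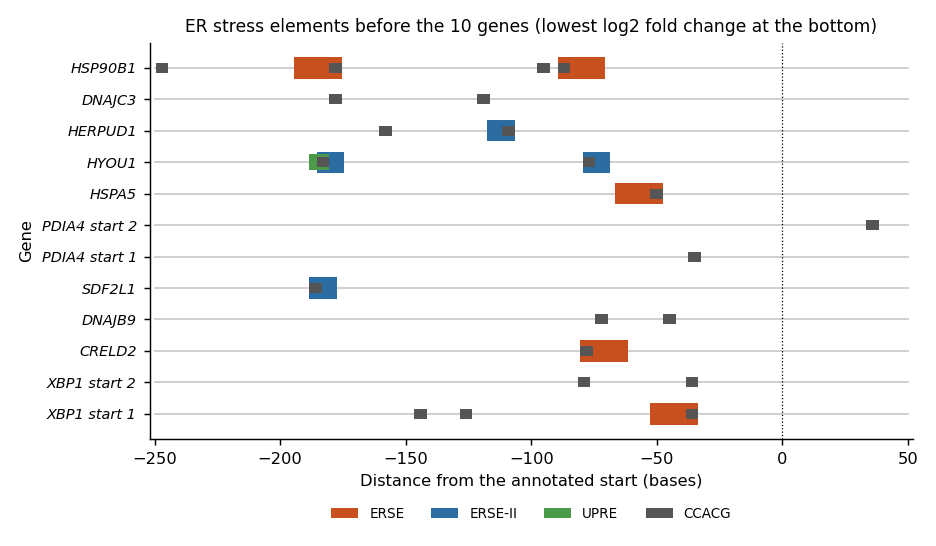
Position of each motif match from 250 bases before to 50 bases after the annotated start (x axis, bases), with 1 line per start and genes ordered from the lowest KO against WT log2 fold change (bottom) to the highest (top). ERSE or ERSE-II blocks stand before 7 of the 10 genes, HSP90B1 and HYOU1 have 2 each, and DNAJB9, PDIA4 and DNAJC3 have the CCACG part only.

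Library totals ran from 7875722 to 11362363 counts, and 3 counts were worth 0.259 to 0.391 CPM. The THUMPD1 counts were 356 and 468 in the WT libraries and 71 and 58 in the KO libraries (log2 fold change -2.93 ± 0.17 SE, adjusted p = 1.27e-12, edgeR). Replicates differed by more than sampling noise, with a chi-square per degree of freedom of 4.08 between the WT libraries and 6.90 between the KO libraries. Of the 13128 genes tested, 12.1% were called lower in KO cells and 8.79% higher (edgeR quasi-likelihood test, Benjamini-Hochberg adjusted p under 0.05), and the median log2 fold change over all of them was 0.01. Genes of chromosomes 16 and 22 stood apart, with medians of -0.44 and -0.42, where the other 21 chromosomes, leaving out Y with 1 tested gene, had medians between -0.06 and 0.10. HERPUD1 lies on chromosome 16, and XBP1, CRELD2 and SDF2L1 lie on chromosome 22. All 8 markers of the HEK293 line were detected, with 2 called lower in KO cells (NEFM at a log2 fold change of -2.87 and KRT18 at -0.35) and 2 called higher (LHX1 at 2.12 and NEFL at 0.34). Of these calls only that of NEFM held in all 4 fits that left out a library. The 5 markers of differentiated kidney had at most 5 counts in any library and the 4 markers of secretory cells in the table at most 2. Among markers of blood, endothelium and fibroblasts, PTPRC, PECAM1 and DCN had at most 6 counts, while COL1A1, a fibroblast collagen, was detected at 25.3 and 20.7 CPM in WT and 21.2 and 18.5 CPM in KO libraries (adjusted p = 0.401, edgeR).

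Of the 10 genes, 7 were lower in KO cells and none higher, beside the 12.1% of all tested genes called lower. The 7 were XBP1, CRELD2, DNAJB9, SDF2L1, PDIA4, HSPA5 and HYOU1, of which XBP1 fell by 41.7% and HYOU1, the least of them, fell by 14.2%. HERPUD1, DNAJC3 and HSP90B1 did not pass the test. The median log2 fold change of the 10 genes was -0.24, beside 0.01 over all tested genes. In those same 7 genes both KO libraries were below both WT libraries, against 30.0% of all tested genes, and in the other 3 the genotypes overlapped. No gene of the 10 was higher at an unadjusted p under 0.05 by edgeR, nor by DESeq2. The summed level of the 10 genes was 1626 and 1549 CPM in the WT libraries and 1347 and 1359 CPM in the KO libraries. In bulk RNA, fewer cells that express a gene and less RNA per cell cannot be told apart. When libraries were scaled by their size alone, without the TMM factors that take most genes to be unchanged, 8.82% of all genes were called lower, and of the 10 only XBP1, CRELD2 and SDF2L1, the 3 on chromosome 22. That scaling moved the median of all genes from 0.01 to 0.09 and the median of the 10 genes from -0.24 to -0.16.

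**Figure D2:**
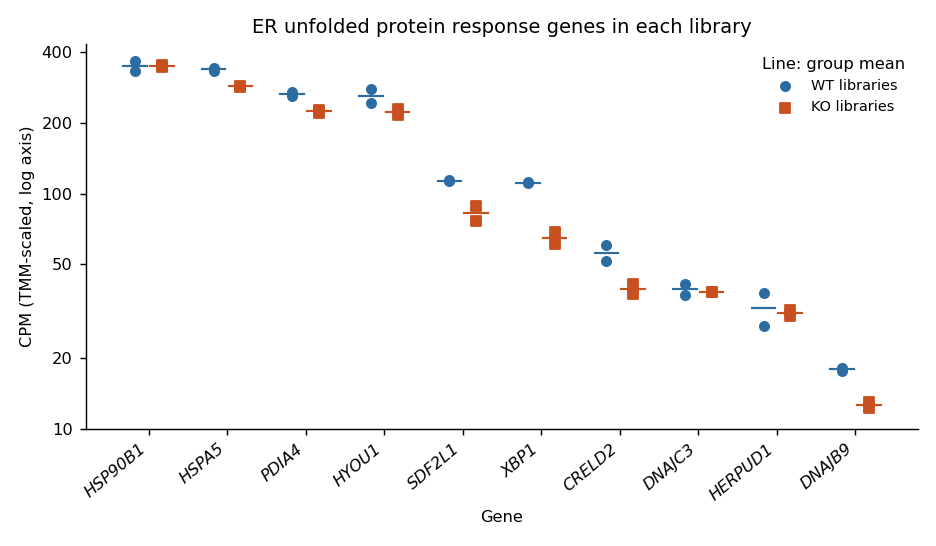
CPM on TMM-scaled library sizes (y axis, log scale) of each of the 10 genes (x axis) in the 2 WT libraries (circles) and the 2 KO libraries (squares), with a line at each group mean. The KO squares lie below the WT circles in 7 genes and among them in HSP90B1, DNAJC3 and HERPUD1.

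XBP1, the transcription factor that IRE1 activates by splicing, showed the largest fall of the 10. Its level was 112 and 111 CPM in the WT libraries and 68.8 and 60.8 CPM in the KO libraries, from counts of 860, 1216, 797 and 648. The WT libraries were nearly equal and both KO libraries were far below them. The log2 fold change was -0.78 ± 0.09 (SE, 95% interval -0.96 to -0.60, adjusted p = 2.84e-07, edgeR), and the mean went from 111 ± 1.07 to 64.8 ± 5.66 CPM (SD, n = 2). XBP1 stayed lower under all 8 alternatives with all libraries (other scalings, tools and filters, and a block for the replicate number) and with any 1 library left out. The counts add spliced and unspliced forms, so splicing by IRE1 cannot be read from them, and a processed pseudogene, XBP1P1, may share reads with XBP1.

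HSPA5 encodes BiP, the main HSP70 chaperone of the ER lumen and the protein that holds the UPR sensors inactive. It was at 343 and 334 CPM in WT and at 285 and 289 CPM in KO libraries. Within each genotype the libraries lay close together, at 339 ± 5.89 and 287 ± 2.73 CPM (SD, n = 2). The log2 fold change was -0.24 ± 0.06 (SE, adjusted p = 0.00582, edgeR), so that HSPA5 fell by 15.2%. It was called lower in 7 of 8 alternatives, the exception being library size alone (-0.15, adjusted p = 0.0649, edgeR), and with any 1 library left out. HSPA5P1, a processed pseudogene, may share its reads.

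HYOU1, the large HSP70-related protein that exchanges the nucleotide of BiP, was at 280 and 243 CPM in WT and at 217 and 230 CPM in KO libraries. The WT libraries were further apart than the KO libraries, and WT replicate 2 was the one near the KO values. The log2 fold change was -0.22 ± 0.07 (SE, adjusted p = 0.0234, edgeR). The call depended on single libraries: without WT replicate 1 the change was -0.12 (adjusted p = 0.303, edgeR) and without KO replicate 1 it was -0.18 (adjusted p = 0.167, edgeR). It was also lost under library size alone, DESeq2 and limma-voom.

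DNAJB9 (ERdj4) and DNAJC3 (P58IPK) are J-domain proteins of the ER that hand clients to BiP, and their values were unlike each other. DNAJB9 was the least abundant of the 10 by CPM, at 18.1 and 17.7 CPM in WT and 12.3 and 13.0 CPM in KO libraries. Its log2 fold change of -0.50 ± 0.18 (SE) passed narrowly (adjusted p = 0.0469, edgeR). It passed under 3 of 8 alternatives and in none of the 4 fits that left out a library (adjusted p from 0.101 to 0.228, edgeR). DNAJC3 was at 41.1 and 37.1 CPM in WT and 38.3 and 38.0 CPM in KO libraries, so that the KO values lay between the WT values. Its log2 fold change was -0.03 ± 0.12 (SE, 95% interval -0.27 to 0.21, adjusted p = 0.886, edgeR), and the interval holds the changes of HSPA5 and HYOU1 but not that of DNAJB9. The difference between DNAJB9 and DNAJC3 was not tested. SDF2L1 forms a complex with ER J-domain proteins and keeps clients soluble. It was at 114 and 113 CPM in WT and 89.0 and 76.4 CPM in KO libraries, a log2 fold change of -0.46 ± 0.08 (SE, adjusted p = 0.000287, edgeR) that passed under all 8 alternatives and with any 1 library left out.

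HSP90B1 encodes GRP94, the HSP90 chaperone of the ER, which is raised together with BiP in the classical response. Its level was 367 and 334 CPM in WT and 346 and 352 CPM in KO libraries, with both KO values between the WT values. The log2 fold change rounded to 0.00 ± 0.06 (SE, 95% interval -0.13 to 0.13, adjusted p = 0.971, edgeR), so a change of the size seen in HSPA5 (-0.24) lies outside its interval. The counts of HSPA5 for each count of HSP90B1 were 0.935 and 1.001 in WT and 0.825 and 0.820 in KO libraries. This ratio needs no scaling of the libraries, and its KO values are both below its WT values. For XBP1 the ratio was 0.306 and 0.331 in WT and 0.199 and 0.173 in KO libraries. HSP90B1 was chosen for this after its values were seen. How many of all tested genes are separate between genotypes by this ratio was not computed, so no count is given for the UPR genes. The ratio of HERPUD1 overlapped between genotypes. For DNAJC3 the gap was small, with ratios of 0.112 and 0.111 in WT and 0.111 and 0.108 in KO libraries. The pseudogenes HSP90B2P and HSP90B3P may share reads with HSP90B1, and C12orf73 lies on its opposite strand.

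PDIA4 (ERp72) and CRELD2 act on disulfide bonds of ER clients. PDIA4 was at 262 and 271 CPM in WT and 221 and 228 CPM in KO libraries. The genotypes were separate, and the log2 fold change was -0.24 ± 0.06 (SE, adjusted p = 0.00636, edgeR), lost under library size alone (-0.16, adjusted p = 0.0638, edgeR) and without KO replicate 1 (-0.22, adjusted p = 0.0683, edgeR). CRELD2 was at 51.8 and 60.5 CPM in WT and 37.6 and 41.2 CPM in KO libraries, and the log2 fold change was -0.52 ± 0.11 (SE, adjusted p = 0.00147, edgeR). It was called lower under all 8 alternatives and with any 1 library left out. ALG12 overlaps it on the opposite strand and whether counting used strand is not stated, so their reads may be mixed. ALG12 itself had mean levels of 34.7 CPM (WT) and 31.1 CPM (KO), a log2 fold change of -0.16 (adjusted p = 0.401, edgeR).

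HERPUD1, a membrane protein that helps assemble the degradation complex for misfolded ER proteins, varied more between the WT libraries than between genotypes. It was at 38.0 and 27.4 CPM in WT and 31.9 and 30.0 CPM in KO libraries, so that both KO values lay between the WT values. The log2 fold change was -0.06 ± 0.14 (SE, 95% interval -0.36 to 0.23, adjusted p = 0.805, edgeR). Its direction turned under library size alone (0.02), under limma-voom (0.003) and without WT replicate 1 (0.18).

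**Figure D3:**
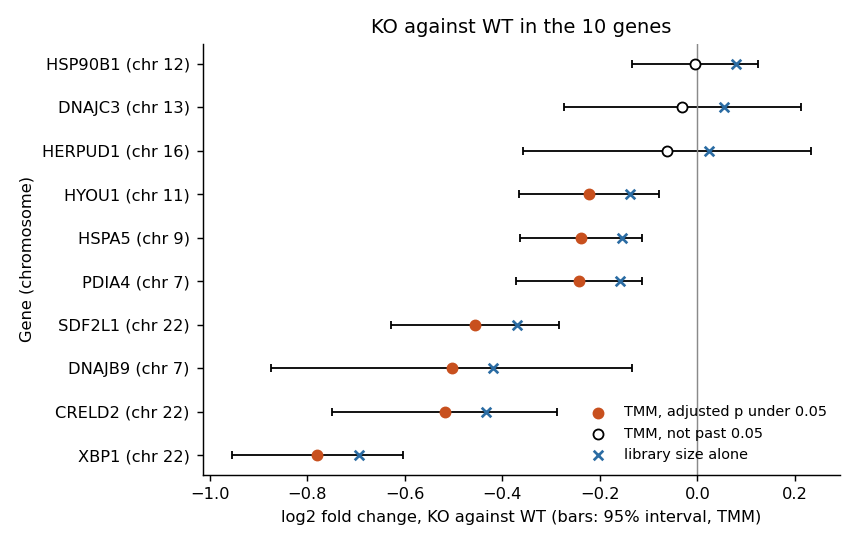
log2 fold change of KO against WT (x axis) of the 10 genes (y axis, with chromosome) by edgeR with TMM scaling, with 95% intervals as bars, filled where the adjusted p was under 0.05, and with library size alone as crosses. The 7 filled points run from -0.78 in XBP1 to -0.22 in HYOU1, the intervals of the 3 open points cover 0, and each cross lies to the right of its point.

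Compared per length, as CPM per kilobase of the GENCODE 44 reference transcript, the order of levels in WT cells differed from that of the counts. SDF2L1, whose transcript has 825 bases, came first at 138 and 137 CPM per kilobase, then HSP90B1 at 132 and 120, PDIA4 at 94.5 and 97.8 and HSPA5 at 87.4 and 85.3. XBP1 followed at 62.6 and 61.8 CPM per kilobase, HYOU1 at 60.8 and 52.9, CRELD2 at 36.3 and 42.4, and HERPUD1 at 13.3 and 9.60. DNAJB9 at 7.53 and 7.33 CPM per kilobase and DNAJC3 at 7.35 and 6.64 were lowest, and theirs were the only neighbouring WT ranges that overlapped. In KO cells SDF2L1, at 108 and 92.6 CPM per kilobase, was below HSP90B1, at 124 and 127. These levels rest on the assumption that the reference transcript is the one expressed.

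On chromosome 22, 60.1% of the 311 tested genes were called lower, and on chromosome 16 the share was 50.6% of 573. Set against the other genes of its chromosome, XBP1 lay 0.37 below their median log2 fold change, with 41 of 310 lower than it. CRELD2 lay 0.10 below the median with 102 of 310 lower, and SDF2L1 0.04 below it with 137 of 310 lower, which is near the middle. The nearest tested genes that do not overlap them were called lower too (log2 fold changes, edgeR). YDJC and PPIL2 beside SDF2L1 were at -0.81 and -0.31, and CCDC117 and ZNRF3 beside XBP1 at -0.36 and -0.58. ZBED4 and PIM3 beside CRELD2 were at -0.41 and -0.54. ALG12, which overlaps CRELD2 on the opposite strand, was at -0.16 and was not called (adjusted p = 0.401, edgeR). The call of PPIL2 was lost without WT replicate 2 or KO replicate 1 and under library size alone or DESeq2. That of CCDC117 was lost without KO replicate 1. HERPUD1 stood the other way, 0.38 above the median of chromosome 16, with 491 of 572 genes lower than it, while NUP93 and CPNE2 beside it were at -0.48 and -0.28, the second not past the test. The part of the chromosome shift in these values was not tested.

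The other 6 genes lie off chromosomes 16 and 22. Whether the shift of those chromosomes has a part in their values was not tested. Of them 4 were called lower (HSPA5, PDIA4, HYOU1 and DNAJB9), beside 9.10% of the placed tested genes off chromosomes 16 and 22. Their median log2 fold change was -0.23, beside 0.03 for those genes. Their summed level was 1310 and 1237 CPM in WT and 1120 and 1151 CPM in KO libraries, so that the KO values were both below the WT values. Against their own chromosome, HSPA5 had 98 of 525 genes lower than it, PDIA4 108 of 605, HYOU1 149 of 738 and DNAJB9 44 of 605. Under library size alone none of these 4 was called, their log2 fold changes then running from -0.42 to -0.14.

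**Figure D4:**
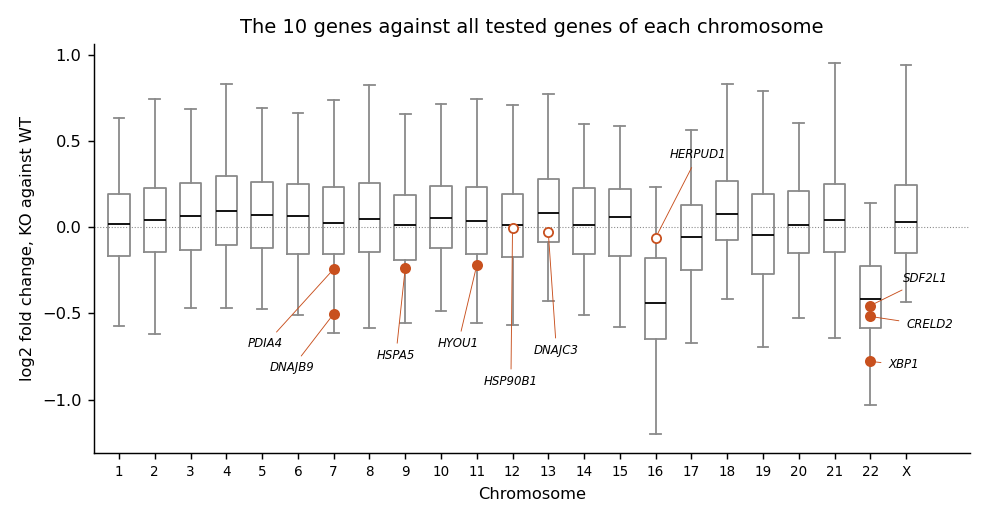
log2 fold change of KO against WT (y axis) of all tested genes by chromosome (x axis), as boxes from the lower to the upper quartile with a line at the median and whiskers from the 5th to the 95th percentile, with the 10 genes as points, filled where called lower. The boxes of chromosomes 16 and 22 sit lowest, HERPUD1 lies above its box, and XBP1 lies below the box of chromosome 22.

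The elements and the calls are set side by side here, with no test. Over all tested genes, 12.1% were called lower and 8.79% higher. Of the 7 genes with an ERSE or ERSE-II, 5 were called lower (HSPA5, XBP1, CRELD2, SDF2L1 and HYOU1), while HSP90B1, with 2 ERSE, and HERPUD1 were not. Of the 3 without either element, DNAJB9 and PDIA4 were called lower and DNAJC3 was not. Among 23 other tested genes with an ERSE or ERSE-II in a promoter sequence, 3 were called lower and 1 higher. The lower share was near that of all tested genes. The median log2 fold change of the 23 was -0.09. The 3 were CALR, the calcium-binding lectin chaperone calreticulin (-0.26), SERP1, a stabiliser of nascent membrane proteins (-0.26), and GYS1, the muscle glycogen synthase (-0.46), and the gene that rose was GLRA2, a glycine receptor subunit (1.04). These 4 were named after their values were seen, and the call of SERP1 was lost without KO replicate 1 and under library size alone, DESeq2 and limma-voom, and that of GLRA2 without WT replicate 2 or KO replicate 1. CANX and PDIA6, ER folding factors with such an element, had values of -0.09 and 0.05 (adjusted p = 0.272 and 0.575, edgeR). FICD had the lowest value of the 23, at -0.74, from means of 5.74 CPM (WT) and 3.44 CPM (KO). It did not pass the test (adjusted p = 0.141, edgeR). PDIA6 and FICD were also named after their values were seen.

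The sensors upstream of the 10 genes did not pass the test. ERN1, which encodes IRE1, had a log2 fold change of -0.09 ± 0.17 (SE), EIF2AK3, which encodes PERK, of -0.02 ± 0.16 and ATF6 of 0.20 ± 0.09 (adjusted p = 0.735, 0.953 and 0.141, edgeR). Of the 10 tested genes among 11 for the sensors, the enzymes that process their signals and the NF-Y subunits, 1 was called higher and 1 lower, with a median of 0.07. These counts are near the 8.79% called higher and 12.1% called lower over all tested genes. The lower one was RTCB, the ligase that joins the XBP1 exons after IRE1 has cut them, which went from 124 ± 6.09 to 100.1 ± 5.46 CPM (SD, n = 2, log2 fold change -0.31, adjusted p = 0.00544, edgeR), and it too lies on chromosome 22. The higher one was NFYA, a subunit of NF-Y, at 0.28 (adjusted p = 0.0332, edgeR), while NFYC was at 0.17 and MBTPS1, a protease that cuts ATF6, at -0.16 (adjusted p = 0.134 and 0.1003, edgeR). Both calls were lost without WT replicate 2 and without KO replicate 1 (largest adjusted p = 0.0825 for RTCB and 0.528 for NFYA, edgeR), and that of NFYA under DESeq2. ERN2 was not tested, with at most 6 counts.

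Other ER folding factors mostly did not pass, with 2 of 28 higher, 2 lower and a median log2 fold change of 0.01. Both shares were below those of all tested genes, 8.79% higher and 12.1% lower. CALR was one of the lower ones, going from 685 ± 11.3 to 570.2 ± 32.5 CPM (SD, n = 2, adjusted p = 0.00226, edgeR). The abundant lectin CANX and the disulfide isomerase P4HB were at -0.09 and 0.07, neither past the test. TXNDC11, on chromosome 16, was the other lower one (-0.45), and the 2 higher ones were UGGT1 (0.23) and UGGT2 (0.40), which return misfolded glycoproteins to the lectin cycle. UGGT1 was not called with TMM factors from genes off chromosomes 16 and 22. CALR stayed lower with any 1 library left out, whereas each of the other 3 calls was lost without at least 2 of the libraries, WT replicate 2 in each case, and those of UGGT1 and UGGT2 under DESeq2.

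Among 19 tested genes of 20 for ER-associated degradation, the route HERPUD1 serves, 2 were higher and 3 lower, with a median of -0.03. These counts are near the shares over all tested genes, 8.79% higher and 12.1% lower. DERL3, a Derlin of the channel complex, had the largest fall, from 16.3 ± 2.15 to 6.57 ± 1.33 CPM (SD, n = 2, log2 fold change -1.30, adjusted p = 0.000152, edgeR), and lies on chromosome 22 with UFD1L (-0.31), while VCP, the ATPase that extracts clients, lies on chromosome 9 (-0.29). VIMP, now named SELENOS, was highest among those called (0.33), and SEL1L, the scaffold of the HRD1 ligase, was at 0.27. The most abundant, UBE2G2, NPLOC4 and OS9, were at -0.06, -0.14 and 0.05 and did not pass. ERLEC1 had 0 counts in every library, which allows up to 0.391 CPM (3 counts, counting error only). The gene models behind the counts are not stated, so these counts do not show that its RNA was absent. Of 15 genes of the translocon and signal peptidase, SPCS2 alone was called, and it was lower (-0.65, adjusted p = 1.86e-06, edgeR), with a median of -0.04 for the list and values of -0.02, 0.04 and 0.11 for SEC63, SEC61A1 and SSR1. The shares called in this list were below both of those over all tested genes. The calls of DERL3, VCP and SPCS2 held with any 1 library left out, that of VIMP was lost without WT replicate 1 or KO replicate 1, and those of SEL1L and UFD1L each held in 1 of the 4 such fits. DESeq2 called neither SEL1L nor UFD1L, and UFD1L was also lost under library size alone and limma-voom. UFD1L, VCP, SEL1L and UGGT1 were named after their values were seen.

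Outputs of the PERK branch that passed the test moved the other way. Of 8, 4 were called higher, with a median log2 fold change of 0.14, beside 8.79% called higher over all genes. By edgeR 0 of the 8 were lower, also at an unadjusted p under 0.05, and by DESeq2 0 were lower. Without KO replicate 2, however, CEBPB was called lower (-0.93, adjusted p = 0.0298, edgeR), and the higher calls came to 2 there, as they did without WT replicate 1 or KO replicate 1. ATF4, the transcription factor of the branch, was at 839 and 835 CPM in WT and 939 and 935 CPM in KO libraries (0.16 ± 0.06 SE, adjusted p = 0.0416, edgeR), on chromosome 22, where most genes were lower. ATF3, a stress-induced factor, rose from 23.4 ± 1.005 to 36.6 ± 1.08 CPM (SD, n = 2, 0.64, adjusted p = 0.000875, edgeR), and SESN2, a leucine-binding inhibitor of mTORC1, from 50.2 ± 0.364 to 67.6 ± 4.03 CPM (0.43, adjusted p = 0.00235, edgeR). CHAC1, a glutathione-degrading enzyme, was at 1.17 and 4.09 CPM in WT and 5.87 and 6.48 CPM in KO libraries (1.15 ± 0.41 SE, adjusted p = 0.0451, edgeR), with its WT libraries far apart. DDIT3, which encodes CHOP, was at -0.19, TRIB3 at 0.12, PPP1R15A at -0.10 and CEBPB at -0.34, none past the test. Kinases other than PERK, such as GCN2, also phosphorylate eIF2α and so favour ATF4. Rises in this list are not particular to PERK, and whether any of these kinases was active cannot be read from these counts. The difference between this list and the 10 genes was not tested. ATF3 and SESN2 stayed higher under all 8 alternatives and with any 1 library left out. ATF4 was called in none of the 4 fits that left out a library (largest adjusted p = 0.135, edgeR) and not with TMM factors from genes off chromosomes 16 and 22, and CHAC1 was lost without WT replicate 1, KO replicate 1 or KO replicate 2 and under DESeq2 and limma-voom.

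**Figure D5:**
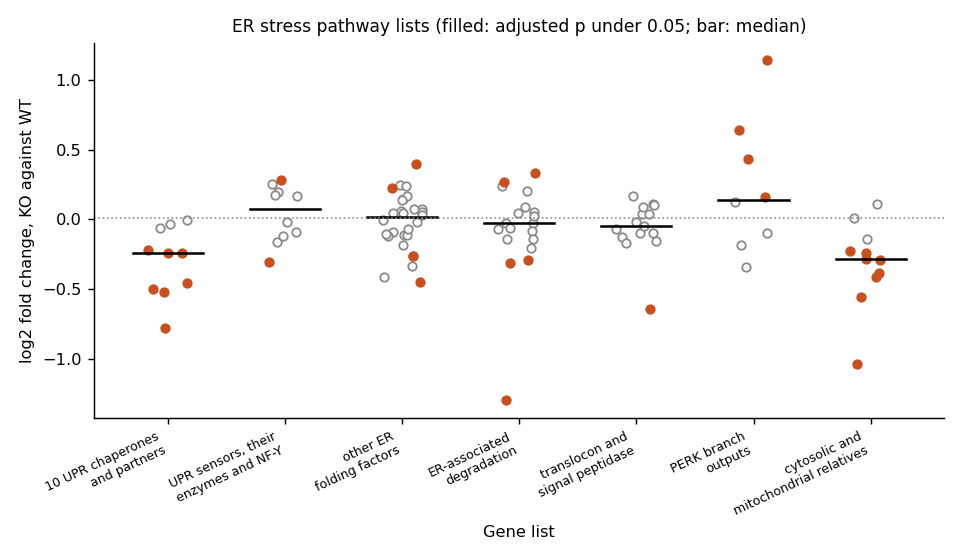
log2 fold change of KO against WT (y axis) of each tested gene in the 10 UPR genes and 6 related lists (x axis), filled where the edgeR adjusted p was under 0.05, with a bar at each list's median and a dotted line at the median of all tested genes. The 10 UPR genes and the cytosolic and mitochondrial relatives have their medians lowest, at -0.24 and -0.29, and the PERK outputs highest, at 0.14.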

How the data were processed

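The authors deposited raw counts, whole numbers of reads per gene symbol in 4 libraries, with the genotype in the column names. Per the labels, total RNA was depleted of ribosomal RNA with a Zymo-Seq RiboFree kit and the submitters' processing notes name hg19. The methods of the study describe RNA-seq of HEK-293T cells with another kit, n = 3, STAR and RSEM on GRCh38, a filter of 1 CPM and limma-voom, and ribosome profiling with STAR on hg19. Which of these made the counts is not stated, nor is strand. The authors also deposited their own comparison of KO with WT (log2 fold changes, errors, p-values), which was not used.

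Counts were tested in R 4.3.3 with edgeR 4.0.16 (glmQLFit, glmQLFTest, TMM) over 13128 genes that reached 1 CPM in 2 or more libraries, adjusted by Benjamini-Hochberg at 0.05, on all 4 libraries with no covariate. The methods' limma-voom with quantile normalization (limma 3.58.1) and DESeq2 1.42.0 were alternatives, beside other scalings and cut-offs, a block for the replicate number, and fits without each library. The test was tried on simulated data. CPM use TMM-scaled library sizes, and means carry the SD over 2 libraries. Counts carry no molecular identifiers, so floors cover counting error only. With 2 against 2 libraries an exact permutation test of a single gene cannot go below p = 0.333 and was not used. Genes were placed on GRCh38 by GENCODE 44, 17318 of 18917 by symbol and 1200 by a RefSeq synonym, and 399 were not placed. Promoter sequences are those of RefSeq. Protein sequences were not used here. Python 3.11.15, pandas 2.3.3, NumPy 2.4.6 and matplotlib 3.10.9 made tables and figures.

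The 10 genes and all lists were chosen with earlier results of these data known. Named beside them are THUMPD1, all PERK outputs and the 3 genes most like HSPA5. In each list the 3 genes with the highest mean CPM and the highest and lowest log2 fold change among those called are named. So are the nearest tested genes beside, and not overlapping, the 4 genes on chromosomes 16 and 22. Others were named outside this rule with their values known, among them the sensors ERN1, EIF2AK3 and ATF6 and those for which the text says so. One cell type marker is not reported here. Ribosome profiling and other data of the study were not analysed here.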

Additional observations from a re-analysis of the deposited data

How the results depend on the processing

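Library size alone gave 3 of the 10 UPR genes called lower and a median of -0.16, turned HERPUD1 to 0.0229 and DNAJC3 to 0.0537, and moved the lower share of all calls from 58.0% to 35.8% (2081 higher, 1158 lower). Upper quartile scaling gave 6 of the 10, DESeq2 and limma-voom 5 each, filters of 1 count in any library and of 10 in every library 7 and 6, an adjusted p of 0.01 5, and TMM factors from genes off chromosomes 16 and 22, added after seeing the data, 7. Genes called fell from 2748 to 1755 with DESeq2 and to 1594 at 0.01, and calls in the 6 related lists from 24 to 13 at 0.01. The cause was not tested.

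The replicate numbers were not taken to pair the libraries, since the deviations of same-numbered libraries correlated at 0.0243 over the 13128 tested genes. With 2 libraries per genotype, both same-numbered pairs give this same value by construction. With the replicate number as a block, 3222 genes and the same 7 UPR genes were called.

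Leaving out 1 library, so that the lone library of a genotype is assumed to vary like the others, gave 1620 to 2591 genes called, 4 to 6 UPR genes lower (4 without KO replicate 1, 5 without WT replicate 1) and 12 to 21 calls in the lists, lowest without KO replicate 1. HERPUD1 then ranged from -0.29 to 0.18 and DNAJC3 from -0.107 to 0.0392, both above 0 without WT replicate 1. Against the chromosome median, SDF2L1 ranged from -0.16 to 0.10, above 0 without KO replicate 2, HERPUD1 from 0.12 without WT replicate 2 to 0.62 without WT replicate 1, XBP1 from -0.47 to -0.24 and CRELD2 from -0.19 to -0.01. Against genes within 5 Mb the 4 lay at -0.05, 0.21, -0.40 and -0.14.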

Other observations

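Most HSP70 and J-domain relatives of the ER chaperones outside the ER were lower in KO cells as well. Of the 11 tested genes among 12 cytosolic and mitochondrial relatives of the ER chaperones, 8 were called lower and 0 higher, with a median log2 fold change of -0.29, beside 0.01 and 12.1% called lower over all tested genes. None of the 11 was higher at an unadjusted p under 0.05 by edgeR or called higher by DESeq2, but library size alone called 1 higher and 5 lower. The lower calls also came to 5 under limma-voom and without KO replicate 1. HSPA1B, the stress-inducible HSP70, was at 73.0 and 80.5 CPM in WT and 35.8 and 39.2 CPM in KO libraries (log2 fold change -1.04, adjusted p = 5.03e-08, edgeR), and HSPA8, the constitutive one, fell from 613 ± 21.6 to 469 ± 4.07 CPM (SD, n = 2, -0.39, adjusted p = 3.28e-05, edgeR). HSPA9 of the mitochondrion was at -0.23 (adjusted p = 0.0138, edgeR), a call lost without KO replicate 1 and under library size alone and limma-voom. Of the HSP90 family, HSP90AB1, the cytosolic relative of HSP90B1, was at 0.01 (adjusted p = 0.950, edgeR) and HSP90AA1 at -0.14 (adjusted p = 0.0937, edgeR), neither past the test, while TRAP1 of the mitochondrion was lower (-0.41, adjusted p = 2.30e-05, edgeR) and lies on chromosome 16. HSPA1A had at most 8 counts and shares nearly all of its sequence with HSPA1B, so the split between them is uncertain.

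The 3 genes whose centred log2 CPM over the 4 libraries lay nearest to that of HSPA5, out of 4769 with mean levels of 50 CPM or more, were WASF1, UBE2O and TNRC6B, at Euclidean distances of 0.0144, 0.0150 and 0.0209. Among the UPR genes, PDIA4 ranked 94th and HYOU1 574th by this distance, HSP90B1 1941st, SDF2L1 2325th and XBP1 4399th. With 4 libraries such a likeness is a description only.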
